A study of Drosophila melanogaster with 8 samples.

Results

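CG numbers are identifiers of the Drosophila annotation that serve as the symbols of genes with no other name. The members here are the 24 probe sets, standing for 23 such genes, whose signal on both arrays of eye-antennal discs carrying vg and simj together lay beyond all 6 other arrays by more than 1.3-fold. They came from 2095 CG-numbered probe sets with a largest signal of at least 200, out of 5666 CG-numbered probe sets in all and 18952 on the array, and the rule left out 1 further gene by name. Of these 2095, 9 probe sets (0.43%) lay above the other arrays and are called rising, and 15 probe sets of 14 genes (0.716%) lay below and are called falling, since CG6329 was measured by a pair of probe sets. The members were thus chosen by their signals on the vg+simj arrays relative to the 6 others, and this difference is described without a test.

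Eye-antennal imaginal discs, the larval epithelia that give rise to the adult eye, antenna and head capsule, were dissected from larvae of the wandering 3rd instar raised at room temperature. Each sample pooled 100 pairs of discs, and each of the 4 groups had 2 biological replicates on Affymetrix arrays. All animals carried ey-GAL4, a driver active in the eye primordium, together with a pair of UAS responders: UAS-lacZ and UAS-lacZ in the lacZ group, UAS-vg and UAS-lacZ in the vg group, UAS-simj and UAS-lacZ in the simj group, and UAS-vg and UAS-simj in the group called vg+simj below. The number of UAS-lacZ responders thus differed between groups and cannot be told apart from the effect of the other transgenes, and vg+simj discs carried none.

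Vestigial (Vg) is a transcriptional cofactor that binds the DNA-binding protein Scalloped and selects wing identity. Simjang (Simj) is the p66 subunit of NuRD, a complex that combines nucleosome remodelling with histone deacetylation. The series concerns transdetermination, the switch of an imaginal disc from its own fate to that of another disc, here of eye-antennal discs in which vg, simj or both were expressed. Several members belong to known protein families (an esterase, an anion transporter, a fatty acid elongase, an ABC transporter, small membrane-anchored Ly6 proteins), while for others no role is given here.

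The arrays had median signals of 36.5 to 46.3, and log2 signals correlated at 0.955 to 0.971 between replicates and 0.912 to 0.963 between groups, across probe sets that are not independent. The brighter vg probe set read 16.6 to 29.4 on the 4 arrays without UAS-vg, 234 and 259 in vg and 401 and 432 in vg+simj. The other vg probe set read 2.5 to 9.9 without UAS-vg, 197.9 and 227.7 in vg and 378.1 and 428.4 in vg+simj. The simj probe set read 479 to 727 without UAS-simj and 912 to 1260.3 with it. Eye-antennal disc markers, with 10 of 11 listed genes measured, were present in all groups, but their summed signal was lowest in simj. It was 17540 and 17506 in lacZ, 16562 and 17676 in vg, 11733 and 11096 in simj and 14082 and 17346 in vg+simj. Markers of attached tissues differed between arrays. The summed signal of 11 salivary gland genes was 6123 and 1034 in vg and 14850 and 1938 in vg+simj, against 360.0 and 544 in lacZ and 3256 and 3021 in simj, and ng1, ng2 and ng3 made up most of it on vg replicate 1. The 5 glue genes of that list (Sgs1, Sgs3, Sgs5, Sgs7 and Sgs8) were instead higher on vg replicate 2 than on vg replicate 1. That of 10 of 11 ring gland genes was 24942 and 30361 in lacZ and 31204 and 37985 in simj, but 8020 and 8362 in vg and 5260 and 4292 in vg+simj. In pooled discs, fewer cells of a type and less RNA per cell cannot be told apart.

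By the order of the arrays, the label under which these genes were grouped, changed only with both transgenes, did not hold for most of them. In 23 of the 24 probe sets both vg arrays or both simj arrays already lay beyond both lacZ arrays in the direction of vg+simj. The same held upward for 31.5% and downward for 38.5% of the 2095 CG-numbered probe sets. The exception was CG7650. The count of 23 describes array order and is no test. The tests below called 1 member higher and 1 lower in vg than in lacZ, and 0 in simj. For CG4757 and CG14852 the order rests partly on signals that cannot be told from background. The members are therefore described as genes whose most extreme signals were those of vg+simj discs.

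The 9 rising genes had low signals in lacZ discs, with a median of the lacZ means of 108, against 563 for all 2095 CG-numbered probe sets. The rule favours such low lacZ signals, so this difference is partly built in. Rising genes could reach the minimum signal on the vg+simj arrays alone, and their lacZ signals had to lie below those arrays. In the 7 whose signals exceeded the array's median on all 8 arrays, the vg+simj means were 2.56 to 9.19 times those of lacZ. For CG4757 and CG14852 no fold is given here, since their lacZ signals include values that cannot be told from background. The lower vg+simj array exceeded the highest of the 6 others by 1.31-fold to 3.04-fold, with a median of 1.67, and by at least 2-fold in 2 genes, CG4757 and CG14852. The lacZ mean was the lowest of the 4 groups in 9 of 9, while it was lower than the vg and simj means in 20.5% of the CG-numbered probe sets. This order of means includes small differences: the simj arrays overlapped lacZ in CG14852 and CG31436, and the vg arrays in CG4757 and CG32373. The summed signal of the wing markers, with 7 of 10 measured, was likewise highest with both transgenes. It was 2693 and 2330 in lacZ, 3616 and 3648 in vg, 3233 and 3150 in simj and 6072 and 6430 in vg+simj. Of these 7 genes 4 met the rule for rising, the transgene vg itself among them, with the wing-pouch gene nub, bi and Cyp310a1. Not all wing markers rose: ap read 67.6 and 68.6 in lacZ and 29.1 and 70.7 in vg+simj. For rn the vg+simj arrays overlapped the others. Outside the wing list, Drs of the immune peptide list and Ilp8 of the disc damage list also met the rule. How the members relate to any of these genes was not tested. The higher vg+simj replicate exceeded the lower by a median of 1.11-fold, against 1.17-fold over the CG-numbered probe sets. The ratio was 1.57 in CG4757, 1.86 in CG5002 and 1.99 in CG14852. The rule needs both vg+simj arrays to be high and so favours replicates that are close.

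Enzymes and transporters come first. CG4757, a member of the carboxylesterase family, had signals of 41.2 and 3.4 in lacZ, 60.2 and 25.6 in vg, 66.8 and 46.7 in simj and 319.7 and 203 in vg+simj. Its vg+simj arrays stood far above the rest, the vg arrays overlapped both lacZ and simj, and the lacZ replicates lay apart. CG5326, of the ELOVL family of enzymes that lengthen fatty acid chains, had signals of 213 and 131 in lacZ, 407 and 434 in vg, 622 and 583 in simj and 875 and 1183 in vg+simj. Here the 4 groups were separate, in the order lacZ, vg, simj and vg+simj. Another CG5326 probe set gave 53.5 and 55.8 in lacZ, 97.0 and 167 in vg, 110.3 and 158 in simj and 187 and 229.6 in vg+simj, the same order of means with vg and simj overlapping, and the remaining one read 0.90 to 3.5 on all arrays.

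CG5002, a member of the SLC26 family of sulfate and anion transporters, had signals of 64.3 and 67.6 in lacZ, 148 and 165 in vg, 222 and 201 in simj and 689 and 371 in vg+simj. Each single transgene gave signals above lacZ, simj above vg, and the vg+simj replicates, although apart, were both higher still. CG31436, which encodes an ecdysteroid kinase-like protein, had signals of 222 and 188 in lacZ, 391 and 368 in vg, 241 and 178 in simj and 523 and 528.5 in vg+simj. Its vg arrays lay above lacZ, whereas the simj arrays overlapped lacZ.

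The other rising genes have no role given here. CG34247 had signals of 70.1 and 74.9 in lacZ, 286 and 487 in vg, 220.2 and 168.5 in simj and 696 and 637 in vg+simj. The groups were separate, with vg above simj and vg+simj highest. CG14598 had signals of 138 and 78.0 in lacZ, 290.3 and 309 in vg, 250.2 and 265 in simj and 639.8 and 577 in vg+simj. The vg arrays lay a little above the simj arrays, and both were above lacZ and below vg+simj.

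CG15822 had signals of 148 and 113 in lacZ, 297 and 298 in vg, 247 and 198 in simj and 445 and 433 in vg+simj. The groups followed the order lacZ, simj, vg and vg+simj without overlap. CG32373 had signals of 164 and 96.5 in lacZ, 234 and 148.5 in vg, 197 and 223 in simj and 457 and 441 in vg+simj. The vg replicates spanned a wide range that overlapped lacZ, whereas both simj arrays lay above lacZ. On the scale of log2(signal + 2.8), which understates the change of dim genes, the difference of vg+simj from lacZ was 1.74 ± 0.20 (SE) for CG15822 and 1.81 ± 0.30 for CG32373, among the smaller ones, and 2.89 ± 0.29 for CG5002 and 3.15 ± 0.27 for CG34247.

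**Figure D1:**
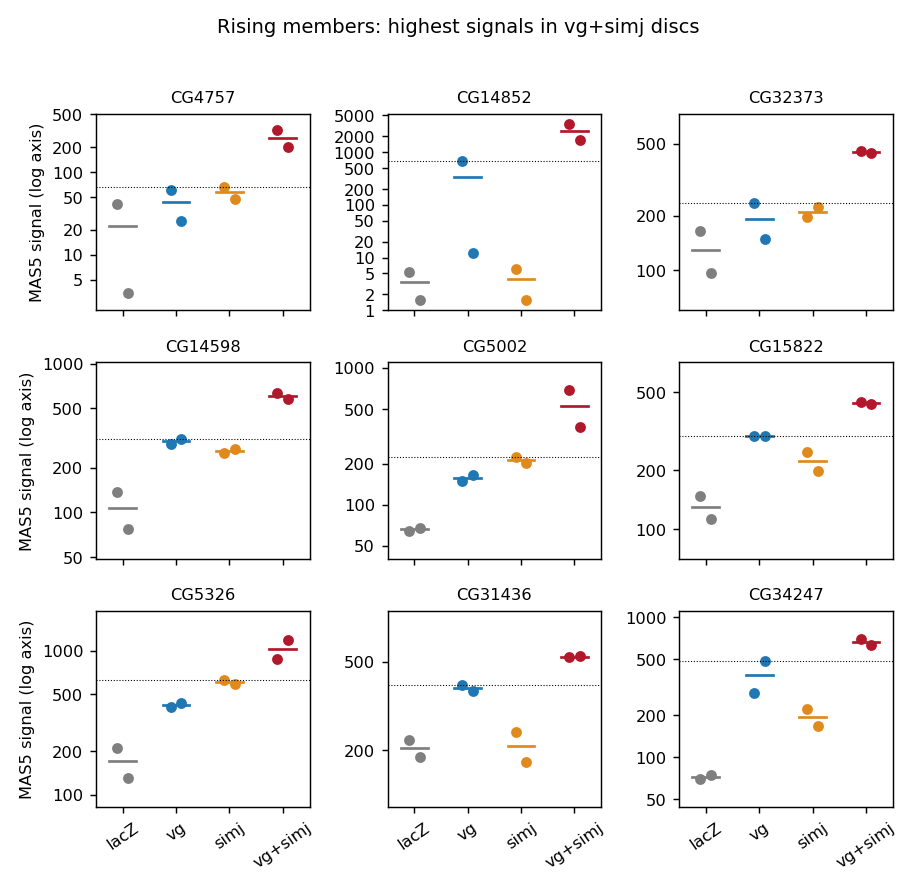
Signals (log axis) of the 9 rising probe sets on the 8 arrays, with points for single arrays coloured by group, bars at the mean of the 2 arrays and a dotted line at the highest of the 6 arrays without both transgenes. The lacZ points lie lowest on average in each of the 9 genes, vg and simj in between, and vg+simj highest as the rule requires.

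CG14852 had signals of 5.3 and 1.6 in lacZ, 671 and 12.1 in vg, 6.2 and 1.6 in simj and 3383 and 1697 in vg+simj. It differed from the other rising genes in scale and in its spread. Signals in lacZ and simj were near the bottom of the array's range, the vg replicates were far apart, and both vg+simj arrays were high. The log2 change with both transgenes was 8.65 ± 1.49, with the largest standard error among the members, and its size depends on lacZ signals not told from background. The neighbouring gene CG8087, chosen after its values were seen, read 14.2 and 6.0 in lacZ, 1535 and 17.6 in vg, 19.6 and 36.4 in simj and 2562 and 904 in vg+simj. Its order of arrays was close to that of CG14852, with vg replicate 1 and both vg+simj arrays high. In the salivary gland list, ng1, ng2 and ng3 were also high on vg replicate 1 and low on vg replicate 2, but the other members of the list did not show such a gap. Of these 3 genes ng1 read 1368 in vg replicate 1 and 10.3 in vg replicate 2, 202 and 1002 in simj, 5858 and 528.5 in vg+simj, and 11.7 and 13.4 in lacZ. In simj discs ng1 was high while CG14852 was not, at 6.2 and 1.6. The glue gene Sgs7, in contrast, read 128 and 252 in vg, and 649.7 and 30.8 in vg+simj. No gene of the salivary gland list was at 0 on any array, and the part of attached tissue in the CG14852 signal was not tested. In the annotation CG14852 overlaps another gene, CG31313, whose own probe set read 1559 and 450.3 in lacZ, 671 and 130.4 in vg, 838 and 1146 in simj and 859 and 271 in vg+simj, a different order of arrays.

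**Figure D2:**
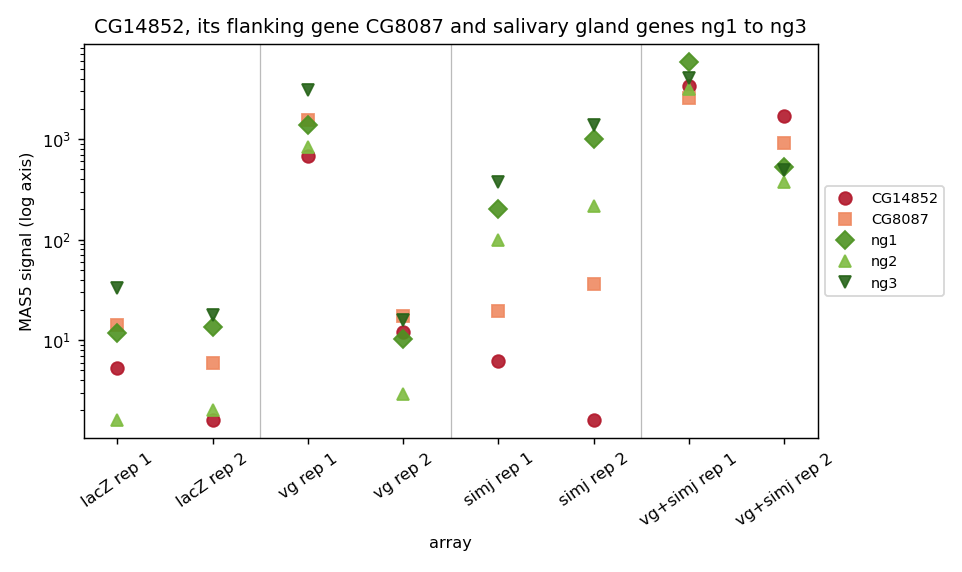
Signals (log axis) of CG14852, its neighbour CG8087 and the salivary gland genes ng1, ng2 and ng3 on each of the 8 arrays. CG14852 and CG8087 are high on vg replicate 1 and on both vg+simj arrays, while ng1 to ng3 are high on the simj arrays as well.

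The 15 falling probe sets had a median lacZ mean of 655, and in the 12 above the array's median on all 8 arrays the lacZ mean was 2.76 to 14.7 times that of vg+simj. The lowest of the 6 other arrays exceeded the higher vg+simj array by 1.3-fold to 2.62-fold, with a median of 1.69, and by at least 2-fold in 4 probe sets. The lacZ mean was the highest of the 4 groups in 10, the vg mean in 3 and the simj mean in 2, while lacZ exceeded the vg and simj means in 30.1% of the CG-numbered probe sets. Replicates of vg+simj had a median ratio of 1.44 and differed by over 2-fold in CG15919, CG34296 and CG6495. For description they were put into sets, after their values were seen, by whether vg or simj arrays had the lower signals.

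A first set was lower in vg than in simj. CG34296 had signals of 1428 and 782 in lacZ, 347 and 202 in vg, 1326 and 1378 in simj and 28.3 and 154 in vg+simj. Both vg arrays lay below the lacZ and simj arrays, which overlapped, and the vg+simj replicates were apart. CG13063 had signals of 931 and 1319.8 in lacZ, 695 and 587 in vg, 1352 and 1579 in simj and 450.4 and 355 in vg+simj. Here simj arrays were the highest, above lacZ, and vg arrays lay below lacZ.

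CG4822, which encodes an ABC transporter of the G subfamily, had signals of 529 and 680.5 in lacZ, 333 and 347 in vg, 577 and 443 in simj and 119.9 and 147 in vg+simj. Its simj arrays overlapped lacZ and its vg arrays lay below. CG15919 had signals of 1913 and 3790.4 in lacZ, 432 and 258 in vg, 2035 and 933 in simj and 98.7 and 14.1 in vg+simj. The vg arrays were far below the lacZ and simj arrays, which overlapped, and vg+simj replicate 2 had the lowest signal of any falling probe set.

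CG4408, which encodes a protein of the zinc carboxypeptidase family, had signals of 3475 and 4792 in lacZ, 951 and 917 in vg, 2585 and 3089 in simj and 359 and 202 in vg+simj. The groups did not overlap, in the order lacZ, simj, vg and vg+simj, with the widest gaps between simj and vg and between vg and vg+simj. CG15919 had a log2 change of -6.02 ± 0.79 in vg+simj against lacZ, CG34296 of -3.93 ± 0.67 and CG4408 of -3.91 ± 0.27, the 3 largest falls among the members. The ring gland markers above, among them genes of ecdysone synthesis, were likewise high in lacZ and simj and low in vg and vg+simj. Haemocyte markers, a list of 12 blood cell genes, had summed signals of 7742 and 9405 in lacZ, 3335 and 2611 in vg, 9678 and 13856 in simj and 4928 and 4231 in vg+simj. These sums too were lower in vg and vg+simj, though vg+simj was not below vg. Of the 12 genes 0 met the rule, against 3 ring gland genes. NimC1 did not follow the sum, at 112 and 128.5 in lacZ, 117 and 150 in vg and 141 and 193 in vg+simj. For crq the vg and vg+simj arrays overlapped lacZ, while the other haemocyte genes lay below lacZ on those arrays. The part of ring gland tissue or blood cells in the members' signals was not tested.

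A second set was lower in simj than in vg. CG31676, which encodes a small membrane-anchored protein of the Ly6 family, had signals of 2238 and 2862 in lacZ, 3090.3 and 3117 in vg, 1315 and 1372.5 in simj and 944 and 901 in vg+simj. The vg arrays lay above lacZ and the simj arrays below. CG6329, another Ly6 family gene, had signals of 713.5 and 596 in lacZ, 592 and 681 in vg, 394 and 278 in simj and 164 and 113.5 in vg+simj on 1 of its probe sets, called A. Its vg arrays overlapped lacZ and its simj arrays lay below.

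CG6329 had signals of 293 and 391 in lacZ, 263 and 383 in vg, 197 and 193 in simj and 79.2 and 129 in vg+simj on its other probe set, called B. The order of groups was the same on both CG6329 probe sets, B being the dimmer. CG32032 had signals of 1142 and 1241 in lacZ, 1192 and 1177.5 in vg, 686 and 713 in simj and 454.5 and 310.1 in vg+simj. The lacZ and vg arrays formed a narrow band, with simj below it and vg+simj lowest.

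CG17270 had signals of 258 and 248 in lacZ, 204 and 229.7 in vg, 96.4 and 119.6 in simj and 57.2 and 52.8 in vg+simj. Both single transgenes gave lower signals than lacZ, vg slightly and simj by more. CG6495 had signals of 158 and 215 in lacZ, 173.5 and 230.5 in vg, 87.0 and 98.0 in simj and 24.2 and 53.5 in vg+simj. The vg arrays overlapped lacZ and the simj arrays lay below. CG2269 had signals of 287 and 226 in lacZ, 239 and 475 in vg, 187 and 178 in simj and 59.3 and 75.6 in vg+simj. Here vg replicate 2 was the highest of all arrays, the vg range overlapped lacZ, and simj lay below lacZ.

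Photoreceptor markers, a list of 10 genes measured in full, had summed signals of 8283 and 8484 in lacZ, 7952 and 8601 in vg, 4441 and 3615 in simj and 3244 and 3923 in vg+simj. These sums were thus high and low in the same groups as the second set, although vg+simj was not below simj on each array. Of these 10 genes, 4 met the rule for falling. Single genes departed from the sum: sev and svp were already below lacZ in vg, sev at 211.5 and 186.1 against 436.0 and 484.2. For lz and B-H1 the vg+simj arrays were not below simj. Neuronal markers, with 6 of 7 measured, summed to 3317 to 4005 in lacZ and vg, 2190 and 1602 in simj and 1166 and 1692 in vg+simj. Of these 6 genes 1 met the rule for falling. The neuronal and photoreceptor sums are not separate, since elav, at 1767.5 and 1625.3 in lacZ, is in both lists. The dim gene para did not show this order. The part of photoreceptor or neuronal number in the members' signals was not tested.

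In the remaining set vg and simj were closer together, with log2 differences of vg from simj of -0.50, 0.47 and -0.20 in CG14107, CG7650 and CG3552. CG14107 had signals of 339.9 and 503 in lacZ, 127 and 135 in vg, 249.5 and 139 in simj and 70.9 and 38.0 in vg+simj. The vg and simj arrays all lay below lacZ. CG3552 had signals of 1112 and 897 in lacZ, 639 and 479 in vg, 641 and 632 in simj and 345 and 282 in vg+simj. Its vg and simj arrays were together at an intermediate level. CG7650, a phosducin-like gene, had signals of 195 and 368 in lacZ, 145 and 228 in vg, 85.1 and 199 in simj and 45.5 and 38.6 in vg+simj. Neither single group was clear of lacZ. Other CG7650 probe sets read 104 and 151 in lacZ, 91.9 and 111 in vg, 85.6 and 109 in simj and 23.9 and 62.6 in vg+simj on 1, and 43.7 to 125 over all arrays on the other, where vg+simj overlapped the rest.

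**Figure D3:**
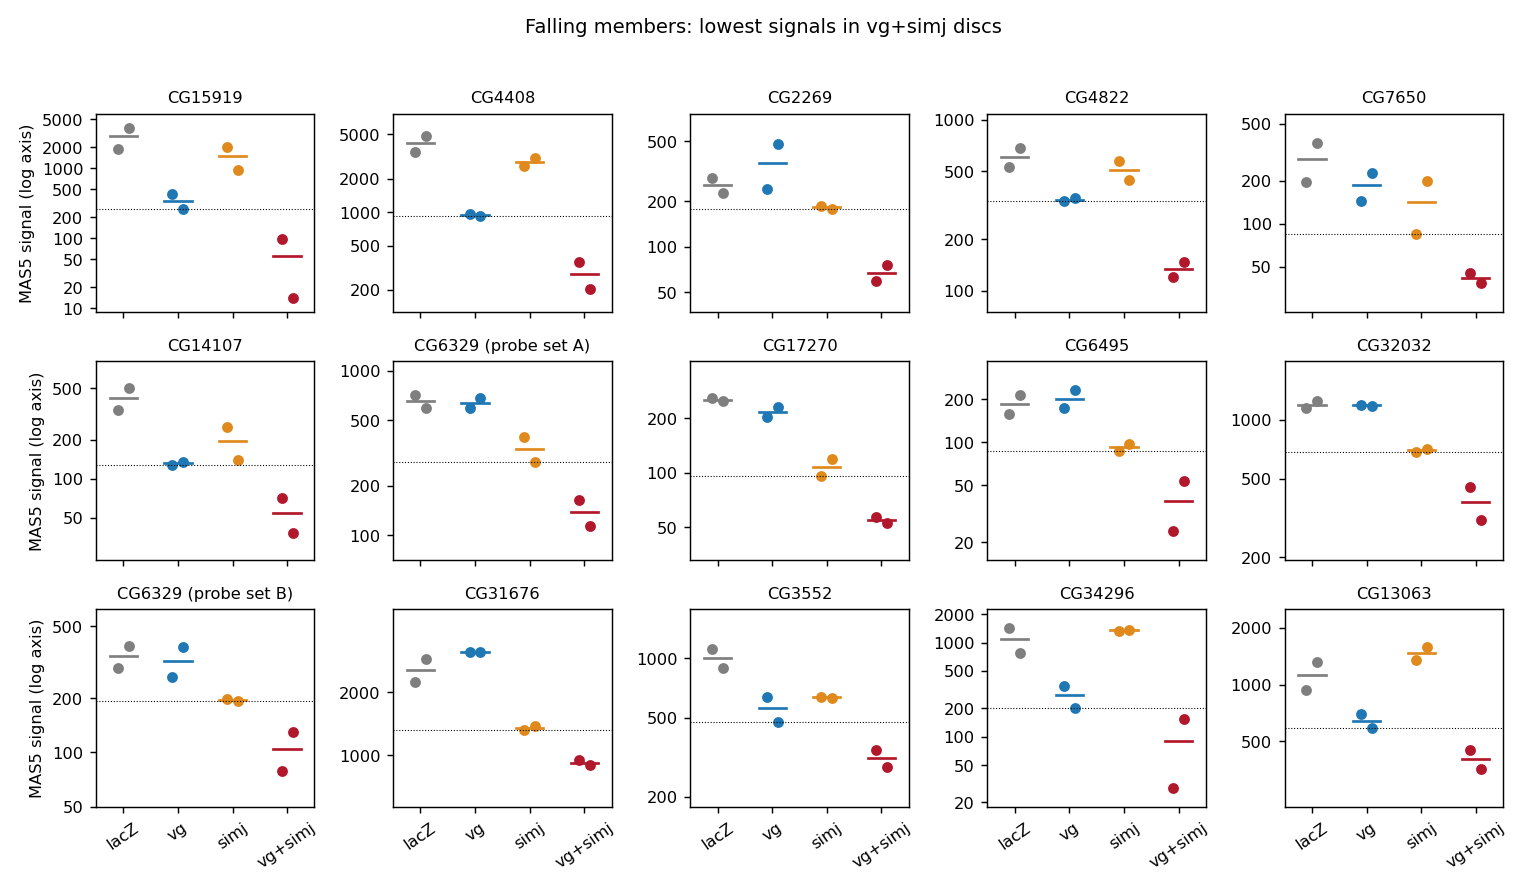
Signals (log axis) of the 15 falling probe sets on the 8 arrays, with points for single arrays coloured by group, bars at the mean of the 2 arrays and a dotted line at the lowest of the 6 arrays without both transgenes. The vg+simj points are lowest as the rule requires, and the middle position is held by vg in some genes, such as CG4408 and CG34296, and by simj in others, such as CG31676 and CG32032.

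How the members differed between the single-transgene groups and lacZ was tested on the 6 lacZ, vg and simj arrays alone, because the rule compared vg+simj with these arrays and so left no test of that contrast. The rule did use the highest or lowest of the 6, so these tests are not wholly free of it. All 9945 probe sets with adequate signal entered the fit, among them 8 of 9 rising and 15 of 15 falling members, and CG14852 was left out as too dim. Of the members, 1 was higher and 1 lower in vg than in lacZ, where limma called 0.161% of the probe sets higher and 0.382% lower. These were CG34247, which rose by 2.32 ± 0.30 (SE) on the log2 scale in vg discs (adjusted p = 0.0428), and CG4408, which fell by 2.12 ± 0.18 (adjusted p = 0.0077). The CG34247 call was lost without either lacZ array, either simj array or vg replicate 2 (adjusted p from 0.107 to 0.192) and with a replicate block (adjusted p = 0.0595), and the CG4408 call without vg replicate 2 (adjusted p = 0.0607).

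With the called CG34247 and CG4408 counted, 6 of 8 rising and 7 of 15 falling probe sets had an unadjusted limma p under 0.05 in vg against lacZ. This compares with 10.4% of the probe sets tested. The median log2 change was 1.27 for the rising and -0.56 for the falling members, and -0.005 over all probe sets tested. CG14598 stood at 1.51 ± 0.28 (adjusted p = 0.118), CG5326 at 1.32 ± 0.24 (adjusted p = 0.112), CG5002 at 1.21 ± 0.21 (adjusted p = 0.102) and CG15822 at 1.19 ± 0.21 (adjusted p = 0.111). Among falling genes CG15919 stood at -3.00 ± 0.48 (adjusted p = 0.0843), CG34296 at -1.98 ± 0.35 (adjusted p = 0.102) and CG14107 at -1.64 ± 0.33 (adjusted p = 0.137).

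In simj against lacZ 0 members were called, where 0.0302% of the probe sets were higher and 0.0603% lower by limma. An unadjusted p under 0.05 was found in 5 of 8 rising and 9 of 15 falling probe sets, against 8.29% of all. The medians were 1.33 for rising and -0.79 for falling members, and -0.04 over all probe sets tested. The smallest adjusted p were those of CG5002 at 1.64 ± 0.21 (adjusted p = 0.0692), CG5326 at 1.83 ± 0.24 (adjusted p = 0.0699), CG32032 at -0.76 ± 0.11 (adjusted p = 0.0894) and CG31676 at -0.91 ± 0.14 (adjusted p = 0.0956). When all 8 arrays shared the estimate of spread, CG5326 (adjusted p = 0.0358) and CG31676 (adjusted p = 0.0490) passed. CG31436 had a change of 0.02 ± 0.21 in simj against 0.88 ± 0.21 in vg (adjusted p = 0.195).

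In the direct comparison of vg with simj 4 falling genes passed and no rising one. Of the members, 2 were higher in vg than in simj, where limma called 0.452% of the probe sets higher: CG31676 by 1.21 ± 0.14 (adjusted p = 0.0217) and CG32032 by 0.76 ± 0.11 (adjusted p = 0.0400). Another 2 were lower in vg, where 0.814% were called lower: CG4408 by a log2 change of -1.60 ± 0.18 (adjusted p = 0.0186) and CG34296 by -2.34 ± 0.35 (adjusted p = 0.0405). CG13063 at -1.19 ± 0.20 (adjusted p = 0.0578) and CG17270 at 0.99 ± 0.20 (adjusted p = 0.0811) did not pass. With all 8 arrays in the fit 3 members passed, 2 of them among these 4, and without either lacZ array 4 passed, 3 of them among these. The count of 4 became 1 without vg replicate 1 and 0 without vg replicate 2 or either simj replicate. The changes of the rising genes ran from -0.52 in CG5326 to 0.95 in CG34247.

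**Figure D4:**
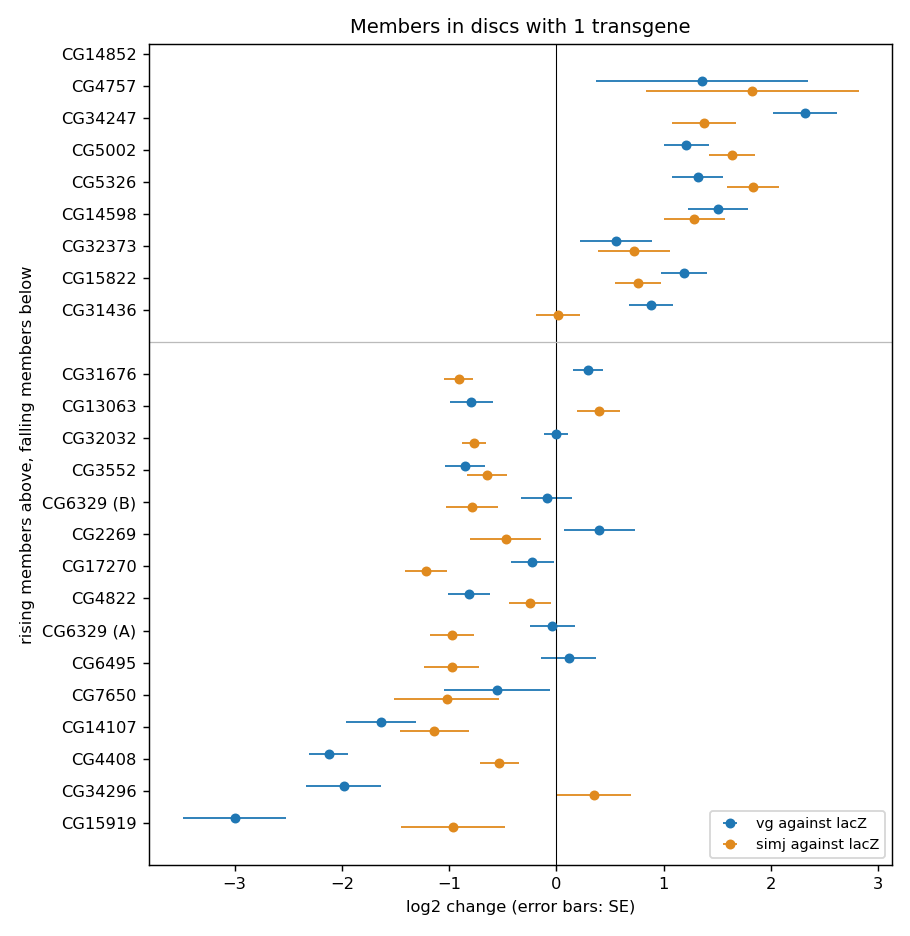
Log2 change of each member in vg (blue) and in simj (orange) against lacZ, with SE as error bars, from the limma fit on 6 arrays. Rising members lie right of 0 for both transgenes, except that CG31436 in simj lies at 0 within its error bar (0.02 ± 0.21). CG31676, CG13063, CG34296, CG2269 and CG6495 have estimated changes of opposite sign in vg and simj, none of which was called. Of these, CG6495 in vg lies at 0 within its error bar (0.12 ± 0.26). CG2269 in vg (0.40 ± 0.33) and CG34296 in simj (0.35 ± 0.35) lie close to it. CG14852 has no point because it was not tested.

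Set against lacZ, arrays of the single-transgene groups can also be counted. Among the 9 rising probe sets both vg arrays lay above both lacZ arrays in 7, against 19.7% of the CG-numbered probe sets, and both simj arrays in 7, against 16.7%. All 4 single-transgene arrays lay above in 5, CG34247, CG14598, CG5002, CG15822 and CG5326, against 4.87%. Among the 15 falling probe sets both vg arrays lay below in 8, against 20.2%, and both simj arrays in 10, against 24.4%. All 4 lay below in 4, CG4408, CG14107, CG17270 and CG3552, against 6.11%. The rule required vg+simj to pass all 6 arrays and did not order these 6 among themselves.

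The change with both transgenes can be set beside the sum of the single changes, in log2 units and without a test. For the rising genes the difference had a median of 0.04 and was positive in 5 of 9. CG5002 had a sum of 2.85 and a change with both of 2.89, CG14598 2.79 and 2.52, and CG5326 3.15 and 2.59. For CG14852 the sum was 4.15 and the change 8.65, but its lacZ and simj signals were not told from background and its vg arrays read 671 and 12.1, so the difference of 4.51 ± 2.11 (SE) is no measure of an excess. For the falling genes the fall with both was larger than the sum in 15 of 15, with a median difference of -1.07, where the median over all 10205 probe sets tested was 0.03. CG34296 had a sum of -1.63 and a change of -3.93, CG2269 -0.07 and -1.88, and CG15919 -3.97 and -6.02. The smallest differences were those of CG14107 at -0.15 and CG3552 at -0.17, 2 of the 4 probe sets with all single-transgene arrays below lacZ. The rule favours falls beyond the single groups, so the sign of these differences is not independent of it.

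**Figure D5:**
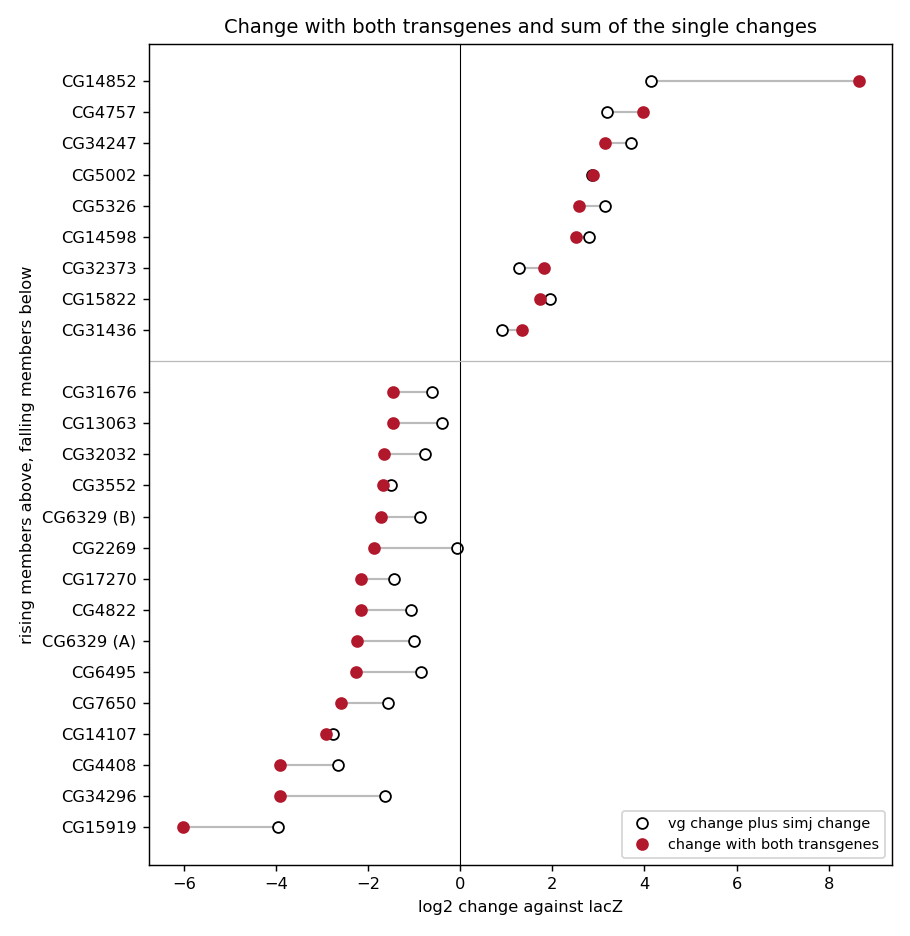
Log2 change against lacZ with both transgenes (filled red) and the sum of the vg and simj changes (open), joined by a grey line for each member. The open and filled points lie close for most rising genes (CG14852 rests on lacZ and simj signals near background), and the filled points lie further left in the 15 falling probe sets.

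Membership depended on a threshold of 1.3. CG34247 had the smallest ratio among rising genes, 1.31, followed by CG31436 at 1.34. Just outside, CG5498 read 557 and 589.9 in lacZ, 695 and 672 in vg, 683 and 733 in simj and 951 and 981.5 in vg+simj. CG6763, at 1.29, had vg+simj arrays far apart at 964 and 315. Among falling genes CG13063 and CG34296 lay just inside, the latter at 1.32. CG31777 lay just outside, with 414 and 497 in lacZ, 180.5 and 166.5 in vg, 389 and 708 in simj and 115 and 128 in vg+simj, so it was low in vg and high in simj like the first set. Between a ratio of 1 and 1.3 there were 193 CG-numbered probe sets above and 81 below.

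No member started close to another. All 23 genes were protein coding in the Release 6 annotation, and 0 had another member starting within 20 kb. Of the 46 genes that flank them, 44 had a probe set, and of the 29 such probe sets with a signal of at least 200, 1 met the rule, against 1.59% of 6773 single-symbol probe sets. This was egr, which encodes a TNF ligand and flanks CG2269: its signals were 926 and 939 in lacZ, 653 and 601 in vg, 795.5 and 840.3 in simj and 366 and 380.1 in vg+simj. Both genes were lowest in vg+simj, but egr was lower in vg than in simj and CG2269 the reverse. CG13043, which flanks CG13063, read 7117 and 5402 in lacZ, 3955 and 2038 in vg, 7628 and 9152 in simj and 2475.5 and 2143 in vg+simj. It followed CG13063 in being highest in simj and low in vg and vg+simj, without meeting the rule, and was chosen after its values were seen.

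Of the 23 genes 9 overlapped another annotated gene. CG32373 overlaps several annotated genes, among them Ank2, a neuronal ankyrin gene with 5 probe sets, of which 1 met the rule. It read 1346 and 1059.5 in lacZ, 1213 and 1422 in vg, 956 and 573 in simj and 251 and 176 in vg+simj. This signal was lowest in vg+simj, where that of CG32373 was highest. The other Ank2 probe sets did not meet the rule. The brightest of them read 391 and 319 in lacZ, 164 and 129 in simj and 107 and 109 in vg+simj. Another read 138 and 224 in lacZ and 55.1 and 68.3 in vg+simj. Both were lowest in vg+simj, by a smaller margin. A dim one read 30.9 and 4.3 in lacZ and 46.1 and 62.1 in vg+simj, and a dimmer one 25.2 and 14.6 against 6.0 and 11.5. No measured probe set of the other genes overlapping CG32373 met the rule. The probe sets of CG2269, CG4822 and CG6329 B carry the suffix that the array's makers gave to probes matching more than 1 transcript, so their signals may include related transcripts.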

How the data were processed

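The authors deposited linear intensities: each array has 1 signal for every probe set, made with MAS5 per the submitters' processing notes, in a version not given in the sources used here. After trimming 2% at either end, the mean signal was 500 on each of the 8 arrays, which had thus been scaled to a common target. No detection call was used, so that low signals and background cannot be told apart, and 2 arrays per group limit the precision. RNA was labelled from 100 ng of total RNA per sample.

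The platform annotation gave 13647 of 18952 probe sets 1 symbol, 402 several and 4903 none, and 183 were controls. Gene IDs were looked up in the RefSeq gene table (Release 6), which changed 0 symbols and lacked the gene of 103 probe sets. The table served for names and neighbours alone. Members were found with a factor of 1.3 and a minimum signal of 200. From the deposited intensities log2(signal + 2.8) was computed, with the 10th percentile of the signals as pseudocount. Control probe sets did not enter the fits, nor did probe sets above the median signal on fewer than 2 arrays of a fit.

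Group means were modelled by limma 3.58.1 (R 4.3.3) with an intensity trend, on 6 arrays for vg against lacZ, simj against lacZ and vg against simj (9945 probe sets, 3 residual and 3.26 prior degrees of freedom). A fit on 8 arrays (10205 probe sets, 4 and 3.84) gave the descriptions of vg+simj. Tests were two-sided, with Benjamini-Hochberg adjustment over all probe sets of a contrast and calls at an adjusted p under 0.05. In data simulated for vg against lacZ, with 200 of 9945 probe sets changed, 31.8% of changes of 1 on the log2 scale and 69.1% of changes of 2 were found, with 6.66% of calls false. The simulated noise was normal and independent, and the spreads were shuffled among probe sets, which removed their relation to intensity. These rates need not hold for the arrays themselves.

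The members, marker lists and tests were chosen with earlier results of these data known. Genes named were, rising and falling apart, the 12 members of largest margin, the 6 of highest signal, the 3 just inside and outside the factor, the 5 of smallest p in each single-transgene comparison, and members with several probe sets. Genes outside this rule are said to be chosen after their values were seen, or are transgenes, markers, and neighbours or overlapping genes of a member. Of the lists, values are given for those named in the text. Alternatives were other factors and minimum signals, quantile normalization, median scaling or centring, a pseudocount of 0.1 times 2.8 or of 64, no filter or a filter at the 75th percentile, no trend, all 8 arrays, the replicate number as a block, and each array left out.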

Additional observations from a re-analysis of the deposited data

How the results depend on the processing

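Membership moved with the rule: a factor of 1.5 left 5 rising and 10 falling probe sets, a factor of 2 left 2 and 4, and no minimum signal gave 47 and 91. Leaving out 1 array gave 9 to 44 rising and 16 to 34 falling probe sets; the largest counts, 35 and 44 rising and 33 and 34 falling, came without a vg+simj array, when a single array had to lie beyond the 6 others. Quantile normalization gave 12 rising, 8 of them members, and 13 falling, 12 of them members; median scaling gave 10 rising, 6 of them members, and 14 falling, 13 of them members. The 2 members called in vg against lacZ became 1 with a pseudocount of 64, 1 with the 75th percentile filter, 4 with median centring (CG15919 and CG34296 added), 0 without the trend, and 0 to 2 with 1 array left out. With the replicate number as a block there was 1, CG4408; the block changed no other member call, and same-numbered replicates were not shown to be paired, their deviations correlating at 0.059 to 0.402. Members called in simj against lacZ numbered 0, but 2 with all 8 arrays, and 0 with any array left out. The 4 members called in vg against simj became 0 without the trend, 3 with median centring, 3 with all 8 arrays (2 of them shared) and 0 to 4 with 1 array left out (3 of 4 shared without either lacZ array).

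Over all probe sets, the 54 calls in vg against lacZ became 31 with the 75th percentile filter, 30 without the trend and 21 to 43 with 1 array left out. The 9 in simj against lacZ became 23 with a pseudocount of 64, 18 without a filter, 15 with the 75th percentile filter, 24 with median centring, 0 without the trend, 42 with all 8 arrays and 0 to 8 with 1 array left out. The 126 in vg against simj became 74 with the 75th percentile filter, 68 without the trend, 213 with all 8 arrays and 4 to 148 with 1 array left out. Median centring moved the median of all probe sets by 0.12 (log2) in vg against lacZ and by 0.13 in vg against simj. Small changes that were not called turned sign: CG31436 in simj at -0.02 with quantile normalization, and in vg CG32032 at 0.11, CG6329 A at 0.08 and CG6329 B at 0.03 with median centring. With 1 array left out the simj changes of CG31436 ran from -0.20 to 0.23 and of CG34296 from -0.08 to 0.79. The vg changes then ran from -0.10 to 0.34 for CG6495, -0.07 to 0.05 for CG32032, -0.36 to 0.18 for CG6329 B, -0.17 to 0.09 for CG6329 A, -0.06 to 2.77 for CG4757 and -0.09 to 0.89 for CG2269. CG15822 passed in vg with all 8 arrays (limma, adjusted p = 0.0492). The difference from the sum of single changes, tried after seeing the data, was positive in 4 to 6 of 9 rising and negative in 14 or 15 of 15 falling probe sets. The cause of these shifts was not tested.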

Other observations

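Applied to the other groups, the rule that chose the members found 9 CG-numbered probe sets highest in lacZ (0.43% of 2095) and 17 lowest in lacZ (0.811%). It found 0 highest and 17 lowest in vg (0.811%), and 27 highest (1.29%) and 0 lowest in simj. Among the 4677 probe sets with another single symbol, 26 were highest (0.556%) and 57 lowest (1.22%) in vg+simj, so in both kinds of gene more lay below than above.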
